A study of Mus musculus with 12 samples.

Results

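The 48 genes described here encode the proteins that copy DNA in S phase, together with the enzymes that supply its nucleotides and a few regulators of entry into S phase. They were chosen by symbol and kept where they reached at least 1 TPM in at least 2 of the 12 libraries, and all 48 listed genes passed. The unit, TPM, gives the share that a gene's transcripts take of all transcripts in a library after correction for gene length. Of the 24589 genes of the deposited table, 11152 passed the same filter and were tested.

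Replication starts at origins that are marked by the origin recognition complex, where Cdc6 and Cdt1 load the ring-shaped Mcm2 to Mcm7 helicase in G1 phase. Cdc45, Mcm10 and the GINS complex then activate the helicase, and DNA polymerases, the sliding clamp Pcna, its RFC loader, the single-strand binding protein RPA and the Okazaki fragment enzymes Fen1 and Lig1 carry out synthesis. Many of these genes are targets of E2F transcription factors, and their mRNA is high in dividing cells such as cultured myeloid blasts.

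RNA came from NRAS/AE9a leukemic cells, a mouse acute myeloid leukemia line that by its name carries NRAS and AML1-ETO9a, grown in RPMI 1640 with SCF, IL-3, IL-6, G418 and puromycin. Wild-type cells (WT) were compared with cells knocked out (KO) for Tet2, an enzyme that oxidizes 5-methylcytosine. Both genotypes received actinomycin D, which blocks transcription, at 5 µg/ml for 0, 4 or 8 h, so that the fall of an mRNA follows its decay, and each of the 6 groups had 2 libraries. All 6 groups share the 2 oncogenes of the line's name and both drug selections. The labels name neither the exons deleted nor a second line of either genotype, so genotype and whatever else sets the WT and KO cells apart cannot be told apart. Separate cultures are not stated for the 2 libraries of a group, and p-values therefore rest on a spread that may be technical.

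Tet2 itself fell in the KO cells without disappearing, from 13.1 and 16.0 TPM in WT at 0 h to 10.2 and 10.2 TPM in KO (log2 difference −0.47 ± 0.13 SE, limma adjusted p = 0.0167). A value per gene does not show which exons the reads came from. All 14 markers of blasts and myeloid progenitors passed the filter. So did 1 of 10 markers of T, NK and B cells (Nkg7), 2 of 8 erythroid markers and 3 of 11 stromal and endothelial markers. Cd3g and Ncr1 were at 0 in every library. The 14 blast and progenitor markers also differed with genotype: at 0 h 4 were higher and 8 lower in KO (limma adjusted p under 0.05). Of 11152 tested genes 1593 were higher and 1278 lower. Mpo stood at 28.5 and 33.5 TPM in WT and at 146 and 137 TPM in KO. Elane went the other way, at 89 and 96 TPM in WT and 29 and 28 TPM in KO. The 13 markers of mature neutrophils and macrophages differed with genotype: their summed level was 57449 to 86070 TPM in the 6 WT libraries and 27980 to 45319 TPM in the 6 KO libraries. Nearly all of that sum was S100a8 and S100a9. Of the 12 such markers that passed the filter, 8 were lower in KO and 1 was higher before the drug. After 4 h 8 were lower and 2 higher, and after 8 h 7 were lower and 2 higher. Adgre1, a macrophage marker, went the other way, at 269 and 289 TPM in WT and 354 and 345 TPM in KO at 0 h. The part of these differences in the results below was not tested. Sequencing depth is unknown for TPM, between 9093 and 10827 genes reached 1 TPM in a library, and the first WT library at 0 h stood apart in S100a8 (55840 TPM against 32177 TPM in the second).

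The promoters of 4 helicase genes are shown first, because these genes make up 4 of the 5 members with 2 or more E2F words. At 8 h Mcm6 had the largest difference between the genotypes among the members (log2 1.34), followed among these 4 by Mcm3 (1.15). Mcm5 (0.95) and Mcm7 (0.94) lay nearer the members' median of 0.85. Whether the words go with that difference was not tested. RefSeq windows from 250 bases before to 50 bases after the transcription start (GRCm38.p6) were matched to 40 of the 48 members. They were searched on both strands for TTTCCCGC, TTTGGCGC, TTTCGCGC and TTTGCCGC, 8-letter forms of the E2F consensus, some of which overlap on opposite strands. In the lines below capitals mark the words, and the windows lie at chr1:128359656-128359955 on the minus strand (Mcm6), chr1:20820263-20820562 on the minus strand (Mcm3), chr8:75109259-75109558 on the plus strand (Mcm5) and chr5:138171834-138172133 on the minus strand (Mcm7).
Mcm6: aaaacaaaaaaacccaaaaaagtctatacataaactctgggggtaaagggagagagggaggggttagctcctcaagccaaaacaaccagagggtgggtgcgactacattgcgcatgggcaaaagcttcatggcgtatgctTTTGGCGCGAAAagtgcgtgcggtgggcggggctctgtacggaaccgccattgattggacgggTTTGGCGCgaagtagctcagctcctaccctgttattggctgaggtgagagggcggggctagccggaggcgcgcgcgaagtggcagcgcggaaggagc
Mcm3: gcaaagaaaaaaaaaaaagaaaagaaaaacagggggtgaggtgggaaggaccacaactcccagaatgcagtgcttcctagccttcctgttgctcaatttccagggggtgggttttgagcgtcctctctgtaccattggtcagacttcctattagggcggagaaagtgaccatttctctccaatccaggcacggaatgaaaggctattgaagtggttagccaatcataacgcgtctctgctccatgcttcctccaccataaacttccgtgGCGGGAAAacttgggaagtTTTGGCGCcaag
Mcm5: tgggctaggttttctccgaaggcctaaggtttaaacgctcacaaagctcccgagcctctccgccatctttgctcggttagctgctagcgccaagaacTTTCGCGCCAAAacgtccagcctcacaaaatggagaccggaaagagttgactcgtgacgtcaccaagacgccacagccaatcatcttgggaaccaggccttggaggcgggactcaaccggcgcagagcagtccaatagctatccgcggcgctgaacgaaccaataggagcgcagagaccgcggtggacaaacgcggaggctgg
Mcm7: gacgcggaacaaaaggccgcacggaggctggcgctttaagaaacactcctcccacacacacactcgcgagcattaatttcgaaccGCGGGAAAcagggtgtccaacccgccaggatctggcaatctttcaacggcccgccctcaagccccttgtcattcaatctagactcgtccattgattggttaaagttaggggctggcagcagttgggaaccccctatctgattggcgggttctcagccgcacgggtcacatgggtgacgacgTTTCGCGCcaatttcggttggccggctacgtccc

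Mcm6 held 3 words, at positions −110, −106 and −47 from the start, the first 2 of them overlapping on opposite strands. Mcm5 held 2 overlapping words at −153 and −149, Mcm3 had them at 20 and 39, and Mcm7 at −165 and 17. Words were found in 14 of the 40 matched members, or 35.0%, against 4.90% of 8686 tested genes with a window and 2.61% of all 27025 genes with one. With Rfc3, 5 members held 2 or more words (12.5%, against 0.265% of tested genes and 0.107% of all genes). The single words lay in Cdc6, Cdt1, Gins3, Lig1, Orc1, Pola1, Pold1, Pold3 and Uhrf1. The box CCAAT, bound by NF-Y, was in 25 of the 40 members (62.5%, against 43.4% of tested genes and 41.1% of all genes). A word is a match of letters. Most matched members had no E2F word in their windows, among them Mcm2, Rrm1, Tyms, Pcna, Cdc45, Ccne1 and E2f1. Mcm4 was among the members without a matched window and was not searched.

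Before the drug 5 of the 48 replication genes were higher in KO by limma (adjusted p under 0.05), beside 14.3% of all tested genes. After 8 h 38 were higher, beside 37.3%. In WT the summed level of the 48 genes was 3012 and 3330 TPM at 0 h, 2080 and 2016 TPM at 4 h and 877 and 907 TPM at 8 h. In KO the sum was 3523 and 3477 TPM at 0 h, 2558 and 2540 TPM at 4 h and 1646 and 1613 TPM at 8 h. Both KO libraries exceeded both WT libraries at every hour, and at 8 h the KO sums were the higher by the widest ratio. In bulk RNA, fewer cells in S phase and less of these mRNAs per cell cannot be told apart. Since TPM are shares, a loss after actinomycin D is a loss relative to the rest of the library's RNA.

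At 8 h of actinomycin D, 47 of the 48 members had fallen in WT, all but Rpa3 (limma on log2(TPM + 1), Benjamini-Hochberg adjusted p under 0.05 over all tested genes), where 80.2% of all tested genes had fallen. Their median log2 change was −2.17, beside −1.40 over all tested genes. In KO, 46 members fell, Rpa3 rose and Dut did not pass the test, where 75.4% of tested genes had fallen. The median there was −1.43, beside −1.16 over all tested genes. Per gene, the median share of the 0 h TPM that was left at 8 h was 20.5% in WT, from 4.51% for Cdc6 to 95.8% for Rpa3, and 35.6% in KO, from 4.09% for Orc1 to 117% for Rpa3. Libraries were also scaled by the median ratio over genes detected in every library, which sets the shift of all genes near 0. With that scaling 32 members fell and 9 rose in WT, where 41.1% of all tested genes fell. In KO 20 then fell and 18 rose, a share of falling members near the 40.7% of all tested genes.

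The difference of the 0 to 8 h change between the genotypes passed for 30 of the 48 members, each with the smaller loss in KO, where 17.3% of all tested genes passed in that direction. Its median was 0.69 over the members and 0.18 over all tested genes on the log2 scale. Under the median-ratio scaling 22 members passed in that direction and 1 in the other (8.96% of tested genes higher), with a median of 0.47. When libraries were scaled by 22 housekeeping genes the counts were 21 and 1 (8.07% of tested genes higher) and the median was 0.44. Compared at 8 h itself, 38 of the 48 members were higher in KO and 0 were lower, against 37.3% of tested genes that were higher, with medians of 0.85 and 0.20. Under the median-ratio scaling 33 members were higher and 1 was lower (25.7% of tested genes higher), with a median of 0.62. Under the housekeeping scaling 32 were higher and 1 was lower (18.5% of tested genes higher), with medians of 0.49 over the members and −0.08 over all tested genes. The 22 housekeeping genes themselves changed in TPM: at 8 h 16 were higher and 4 lower in KO, with a median of 0.39. Over the first 4 h in WT 14 of them rose and 5 fell. In 40 of 48 members both KO libraries lay above both WT libraries at 8 h, as in 50.2% of all tested genes. The same held for 40 members at 4 h (46.0% of all tested genes) and for 28 at 0 h (37.7%). At 8 h Slbp was the 1 member for which both lay below.

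**Figure D1:**
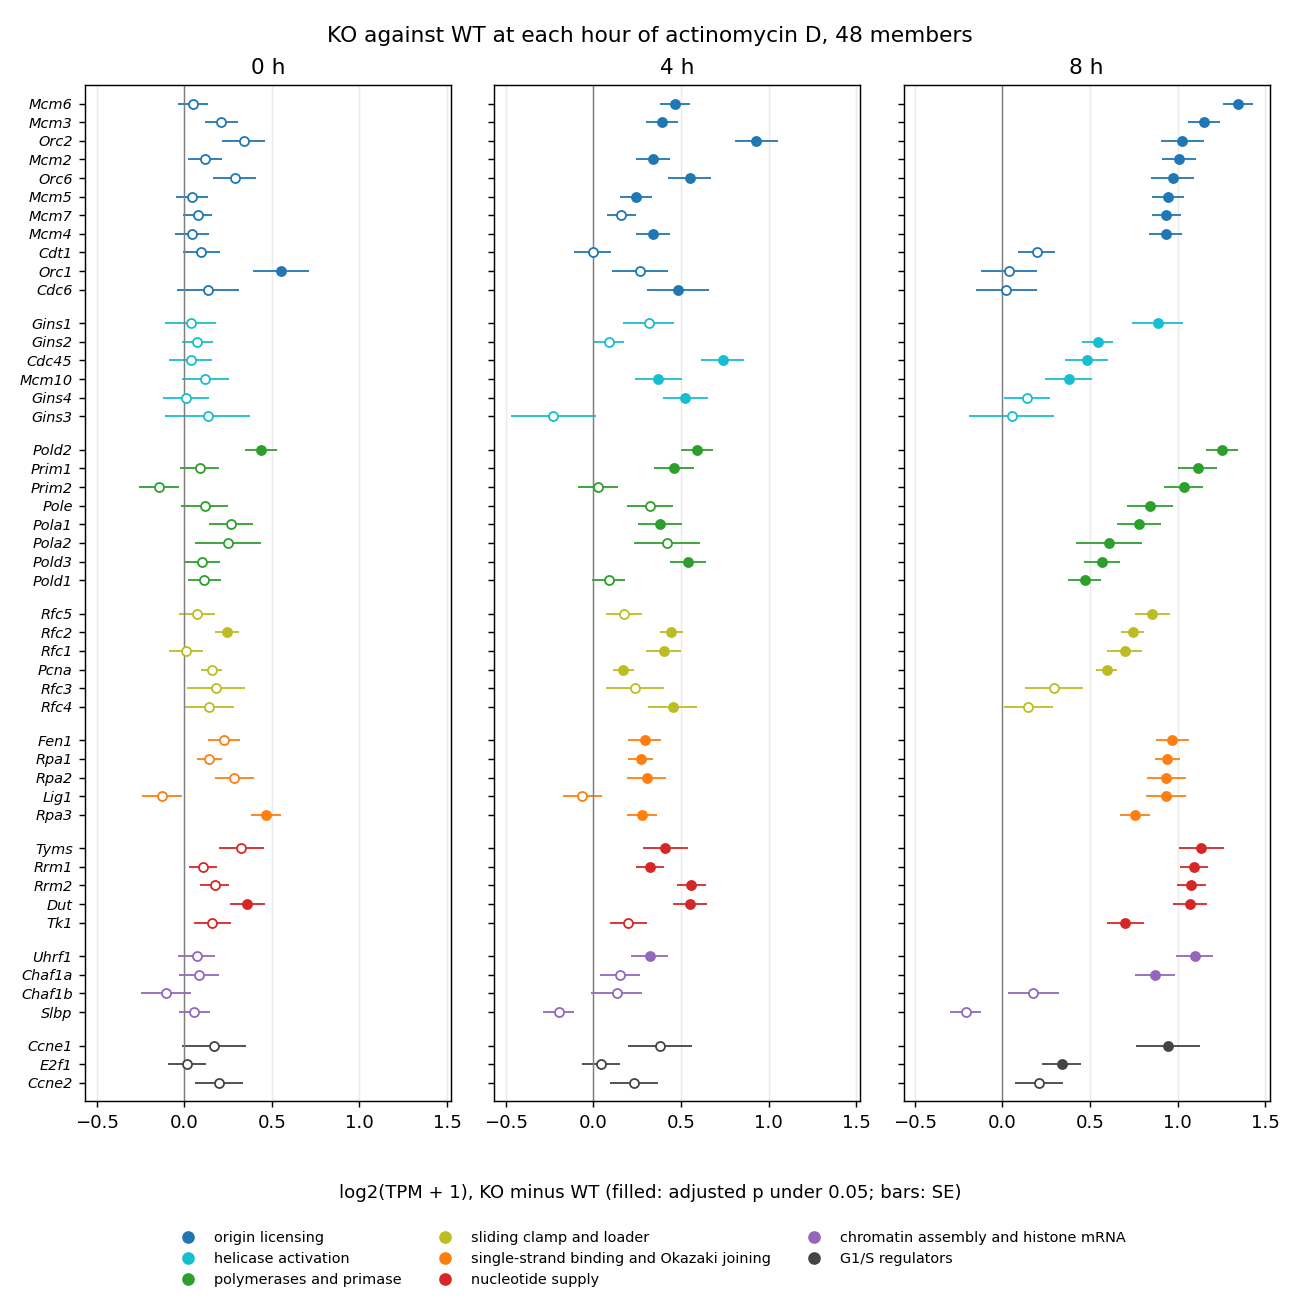
Difference between KO and WT on the log2(TPM + 1) scale (x axis) for each of the 48 members (rows, coloured by role) at 0, 4 and 8 h of actinomycin D. Points are differences of the means of 2 libraries, bars are SE, and filled points passed the limma test at an adjusted p under 0.05. At 0 h 5 points are filled, at 4 h 28 and at 8 h 38, all to the right of 0. Over all tested genes 14.3%, 24.9% and 37.3% were higher in KO by the same test.

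All 11 origin licensing genes fell over 8 h in both genotypes, and 8 were higher in KO at 8 h: Orc2, Orc6 and all 6 subunits of the helicase ring. Over all tested genes 80.2% fell in WT and 75.4% in KO, and 37.3% were higher in KO at 8 h. Orc1, Cdc6 and Cdt1 did not pass the test of KO against WT at 8 h. In WT, Mcm6 stood at 186 and 212 TPM at 0 h, at 114 and 104 TPM at 4 h and at 21.4 and 23.3 TPM at 8 h. In KO it stood at 209 and 202 TPM, then at 153 and 150 TPM, and then at 61.0 and 55.4 TPM. The genotypes overlapped at 0 h and were apart at both later hours, with 2.61 times as much in KO at 8 h. Mcm6 fell in WT by 3.10 ± 0.09 (log2, SE) and in KO by 1.80 ± 0.09, and the difference of 1.29 ± 0.12 was the largest among the members (limma adjusted p = 0.000189).

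The other 5 subunits of the ring were also higher in KO at 8 h. Mcm3 stood at 139 and 159, 106 and 110, and 31.7 and 38.5 TPM in WT at 0, 4 and 8 h, and at 175 and 170, 146 and 138, and 80.4 and 77.2 TPM in KO. Mcm7 stood at 148 and 170, 128 and 126, and 37.7 and 42.9 TPM in WT, and at 172 and 164, 141 and 143, and 79.0 and 76.5 TPM in KO. Both were apart at 8 h by more than the range of either genotype. Mcm5 stood at 103 and 120, 73.5 and 75.5, and 19.5 and 18.8 TPM in WT, and at 112 and 117, 89.7 and 87.0, and 35.3 and 40.6 TPM in KO. Mcm2, which lost least of the licensing genes in WT, stood at 89.3 and 103, 67.8 and 65.9, and 28.3 and 23.8 TPM in WT, and at 102 and 107, 84.1 and 85.6, and 56.2 and 50.4 TPM in KO. In Mcm5 and Mcm2 the genotypes overlapped at 0 h and did not overlap at 4 or 8 h. Mcm4 stood at 79.8 and 92.3, 56.9 and 53.9, and 19.2 and 22.1 TPM in WT, and at 89.9 and 87.4, 70.9 and 69.9, and 42.6 and 37.9 TPM in KO. At 8 h the differences of these 5 between KO and WT were 1.15 ± 0.09 for Mcm3, 1.01 ± 0.10 for Mcm2, 0.95 ± 0.09 for Mcm5, 0.94 ± 0.08 for Mcm7 and 0.93 ± 0.10 for Mcm4 (log2, SE, limma adjusted p of 7.09e-06 or less). The corresponding differences of the 0 to 8 h change lay between 0.86 for Mcm7 and 0.94 for Mcm3 (limma adjusted p from 0.00086 to 0.00148).

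Cdt1 and Cdc6, the loaders of the ring, kept at most 6.02% of their 0 h TPM in either genotype at 8 h. Cdt1, whose protein is destroyed once S phase begins, stood at 44.1 and 44.7 TPM in WT at 0 h, 9.40 and 10.5 TPM at 4 h and 2.29 and 2.46 TPM at 8 h. In KO it stood at 49.1 and 46.1, 10.2 and 9.63, and 2.96 and 2.77 TPM. It fell by 3.75 ± 0.11 in WT and by 3.65 ± 0.11 in KO on the log2 scale, and the difference of 0.10 ± 0.15 did not pass (limma adjusted p = 0.693). Cdc6 stood at 14.8 and 17.4, 2.17 and 1.73, and 0.71 and 0.74 TPM in WT, and at 18.1 and 17.3, 2.98 and 3.25, and 0.46 and 1.10 TPM in KO, with overlap at 0 and 8 h. Its difference of the 0 to 8 h change was −0.11 ± 0.25 (limma adjusted p = 0.788). Orc1, the largest subunit of the origin complex, was also near 0 at 8 h, with 0.28 and 0.53 TPM in WT and 0.45 and 0.42 TPM in KO. At levels under 1 TPM the added 1 compresses differences, so that a genotype difference in Orc1 or Cdc6 at 8 h was hardly detectable.

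**Figure D2:**
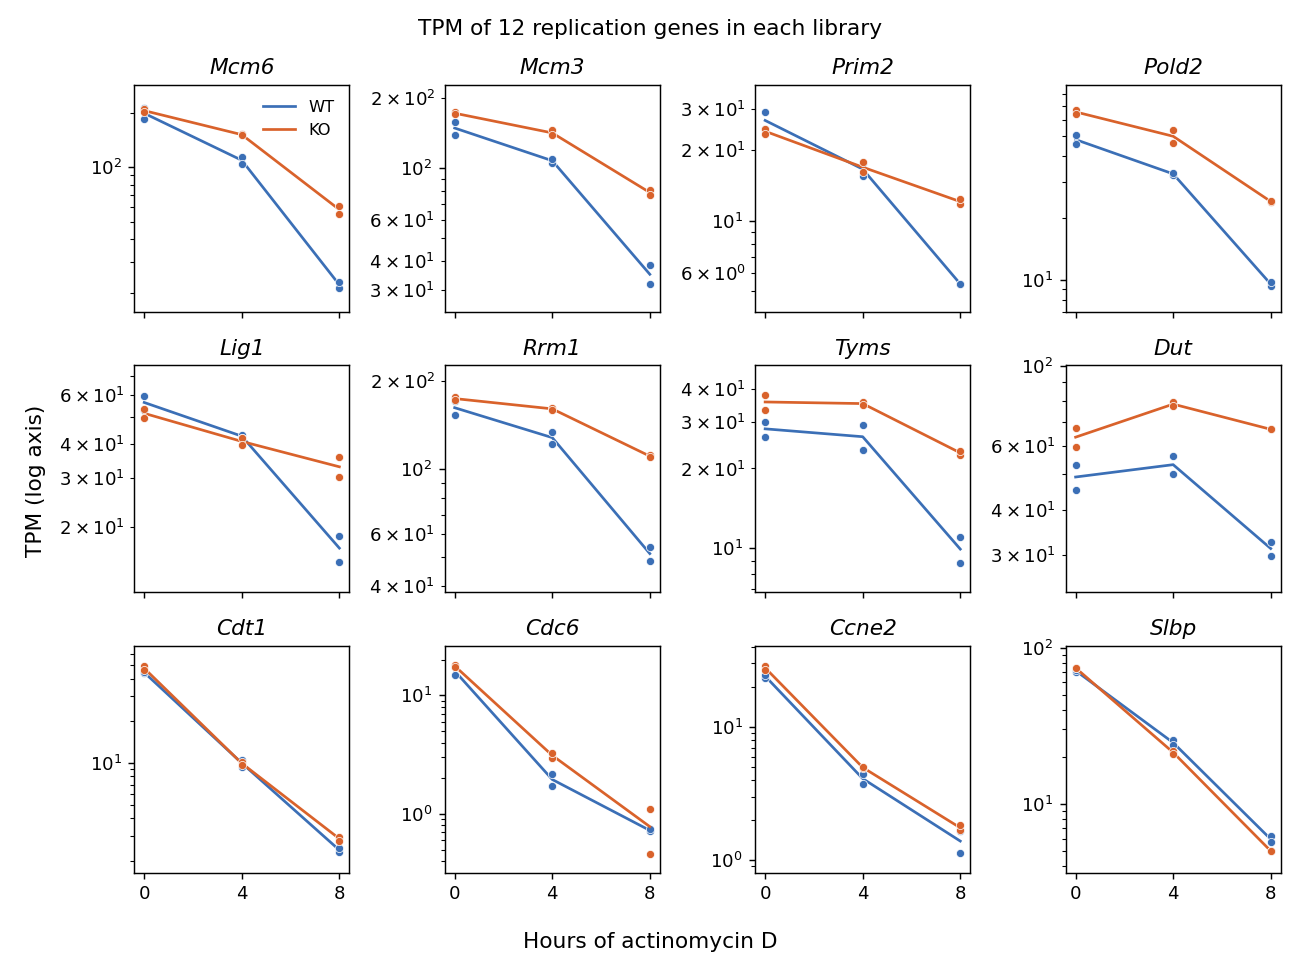
TPM (log axis) against hours of actinomycin D for 12 members, with 1 point per library and a line through the mean of 2 libraries in WT (blue) and KO (orange). In the upper 8 panels the KO points lie above the WT points at 8 h, as for Mcm6 at 61.0 and 55.4 against 21.4 and 23.3 TPM, while for Cdt1, Cdc6, Ccne2 and Slbp in the lower 4 panels the difference at 8 h did not pass the test.

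Among the 6 helicase activation genes all fell over 8 h in both genotypes and 4 were higher in KO at 8 h. Of all tested genes 80.2% fell in WT, 75.4% fell in KO and 37.3% were higher in KO at 8 h. Mcm10, which helps the helicase start and binds polymerase alpha, had the largest log2(TPM + 1) loss of the role in WT: it stood at 29.1 and 36.4, 6.61 and 5.42, and 2.23 and 2.13 TPM in WT at 0, 4 and 8 h, and at 35.2 and 35.7, 8.30 and 7.78, and 3.31 and 2.96 TPM in KO. The genotypes were apart at 4 and 8 h, by 0.38 ± 0.13 (log2, SE) at 8 h. That limma adjusted p of 0.0334 rose to as much as 0.147 on leaving out a library (the first KO library at 8 h) and to 0.544 with housekeeping scaling. Gins2, a GINS subunit, lost the least, from 44.2 and 44.0 TPM in WT at 0 h through 37.7 and 42.3 TPM to 23.8 and 22.0 TPM, and from 44.7 and 48.4 TPM in KO through 43.6 and 41.3 TPM to 34.6 and 33.0 TPM. Thus 52.0% was left in WT and 72.7% in KO. Cdc45, the helicase cofactor, was higher in KO at 4 h, at 20.1 and 23.1 against 13.6 and 11.5 TPM, and at 8 h, at 6.56 and 5.95 against 3.77 and 4.66 TPM. Its difference was 0.74 ± 0.12 at 4 h (limma adjusted p = 0.000627) and 0.48 ± 0.12 at 8 h (limma adjusted p = 0.00608), the latter 0.15 (adjusted p = 0.287) with housekeeping scaling and with an adjusted p of 0.0554 without the first WT library at 8 h.

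All 8 polymerase and primase genes fell over 8 h in both genotypes and all 8 were higher in KO at 8 h, by 0.47 to 1.25 on the log2 scale. Beside them, 80.2% (WT) and 75.4% (KO) of all tested genes fell, and 37.3% were higher in KO at 8 h. Pold2, an accessory subunit of polymerase delta, stood at 45.7 and 50.4, 32.3 and 33.1, and 9.27 and 9.76 TPM in WT at 0, 4 and 8 h, and at 66.9 and 64.1, 46.4 and 53.4, and 23.9 and 24.2 TPM in KO. Its KO libraries lay above the WT libraries at each hour, by 0.44 ± 0.09 at 0 h, 0.59 ± 0.09 at 4 h and 1.25 ± 0.09 at 8 h (log2, SE, limma adjusted p = 0.00369, 0.000382 and 4.97e-07). Prim1 and Prim2 are the 2 subunits of primase, which lays the RNA primers. Prim2 began no higher in KO, at 24.7 and 23.5 TPM against 24.5 and 29.1 TPM in WT, and the genotypes still overlapped at 4 h, at 16.1 and 17.7 against 15.6 and 17.6 TPM. At 8 h KO held 11.8 and 12.4 TPM and WT 5.40 and 5.36 TPM, so that 50.1% was left in KO and 20.1% in WT. The difference of the Prim2 loss was 1.18 ± 0.16 (limma adjusted p = 0.000777).

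Prim1 stood at 37.7 and 41.7, 21.6 and 18.8, and 6.95 and 7.45 TPM in WT and at 44.3 and 40.2, 25.9 and 30.6, and 16.1 and 17.4 TPM in KO, with a difference of the 0 to 8 h change of 1.03 ± 0.16 (limma adjusted p = 0.00145). The primase genes were thus apart at 8 h by more than the range of either genotype. Pold3, a polymerase delta subunit, lost the most of the role in WT: 34.2 and 36.6 TPM at 0 h, 7.66 and 7.87 TPM at 4 h and 4.12 and 4.61 TPM at 8 h, against 37.2 and 38.9, 12.2 and 11.4, and 7.06 and 6.85 TPM in KO. It was apart at each hour, by 0.57 ± 0.10 at 8 h (limma adjusted p = 0.000537). Pola1, the catalytic subunit of polymerase alpha, lost the least of the role in WT, from 19.8 and 23.5 TPM through 14.8 and 13.4 TPM to 5.79 and 6.50 TPM in WT and from 26.4 and 26.0 TPM through 17.1 and 20.1 TPM to 12.2 and 10.4 TPM in KO.

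The 6 clamp and loader genes all fell over 8 h in both genotypes, and Pcna, Rfc1, Rfc2 and Rfc5 were higher in KO at 8 h. Over all tested genes 80.2% fell in WT, 75.4% fell in KO and 37.3% were higher in KO at 8 h. Pcna, the clamp that holds polymerases on DNA, had the highest level per length of the members at 0 h, at 332 and 357 TPM in WT at 0 h, 300 and 297 TPM at 4 h and 156 and 165 TPM at 8 h. In KO it stood at 384 and 384, 337 and 335, and 242 and 243 TPM, above WT at each hour, with a difference of 0.59 ± 0.06 at 8 h (limma adjusted p = 5.24e-06). Its difference of the 0 to 8 h change, 0.44 ± 0.08 (limma adjusted p = 0.00415), had an adjusted p of 0.0652 with median-ratio scaling and 0.0783 with housekeeping scaling. Of the loader subunits Rfc2 kept the most, 49.7% in WT and 70.7% in KO at 8 h. Rfc3 and Rfc4 kept the least, at 9.23% and 9.28% in WT and 10.6% and 9.65% in KO. Rfc2 stood at 120 and 128, 93.3 and 98.1, and 61.0 and 62.4 TPM in WT and at 149 and 145, 129 and 132, and 106 and 102 TPM in KO. Rfc4 was apart at 4 h, at 22.2 and 19.2 TPM in KO and 15.7 and 13.9 TPM in WT, and overlapped at 8 h, at 4.64 and 3.27 and at 3.22 and 3.65 TPM, after 35.5 and 38.6 TPM in WT and 41.5 and 40.5 TPM in KO at 0 h. It fell by 3.10 ± 0.14 in each genotype.

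The 5 single-strand binding and Okazaki genes ranged widely in how much they lost, and all were higher in KO at 8 h, by 0.76 to 0.97 on the log2 scale. Of all tested genes 37.3% were higher in KO at 8 h. Rpa3, the smallest RPA subunit, was the most persistent member: 75.5 and 75.1, 90.7 and 82.3, and 76.0 and 68.3 TPM in WT, and 107 and 102, 98.1 and 113, and 120 and 125 TPM in KO. Its 8 h change was −0.06 ± 0.09 in WT (limma adjusted p = 0.495) and 0.23 ± 0.09 in KO (limma adjusted p = 0.0266, and 0.0501 to 0.129 without either library of KO at 0 or 8 h). The difference of the Rpa3 change between the genotypes, 0.29, did not pass the test. Fen1, the flap nuclease that trims Okazaki fragments, lost the most, from 76.1 and 83.8 TPM through 37.1 and 36.0 TPM to 9.64 and 9.81 TPM in WT and from 93.2 and 94.1 TPM through 43.6 and 46.4 TPM to 21.7 and 18.4 TPM in KO. It fell by 2.91 ± 0.09 in WT and by 2.17 ± 0.09 in KO.

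Lig1, the ligase that joins Okazaki fragments, differed late. It stood at 53.1 and 59.5 TPM in WT and 53.5 and 49.4 TPM in KO at 0 h, and at 43.0 and 42.1 TPM in WT and 42.1 and 39.4 TPM in KO at 4 h. At 8 h KO held 30.4 and 35.7 TPM and WT 15.0 and 18.6 TPM. The difference of the 0 to 8 h change was 1.06 ± 0.16 (limma adjusted p = 0.00132), and that of the change from 4 to 8 h was 1.00 ± 0.16 (limma adjusted p = 0.00277). Rpa1, the large RPA subunit, was higher in KO at 8 h by 0.94 ± 0.07 (limma adjusted p = 6.92e-07).

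All 5 nucleotide supply genes were higher in KO at 8 h, where 37.3% of all tested genes were higher. All 5 also lost less in KO over 8 h, where 17.3% of all tested genes did by the same test. Rrm1 and Rrm2 are the 2 subunits of ribonucleotide reductase, which makes deoxyribonucleotides. Rrm1 stood at 153 and 172, 135 and 122, and 48.7 and 54.3 TPM in WT, and at 177 and 172, 162 and 159, and 112 and 110 TPM in KO. Rrm2 stood at 145 and 164, 79.5 and 75.5, and 31.1 and 33.5 TPM in WT, and at 179 and 169, 120 and 109, and 71.0 and 67.7 TPM in KO. Neither overlapped between genotypes at 0, 4 or 8 h, although Rrm1 was barely apart at 0 h (172.08 TPM in KO against 171.61 TPM in WT). Their differences at 8 h were 1.09 ± 0.08 and 1.08 ± 0.08, and those of the 0 to 8 h change 0.99 ± 0.11 and 0.90 ± 0.12 (log2, SE, limma adjusted p = 0.0004 and 0.000684).

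Tyms, thymidylate synthase, hardly moved in the first 4 h, at 26.4 and 30.0, then 29.2 and 23.5 TPM in WT and 33.4 and 37.9, then 35.6 and 34.6 TPM in KO. At 8 h it stood at 8.83 and 11.0 TPM in WT and 22.5 and 23.3 TPM in KO, a difference of 1.14 ± 0.13 (limma adjusted p = 1.46e-05). Dut, the dUTPase that keeps uracil out of DNA, was higher in KO at each hour: 59.7 and 67.1 against 53.0 and 45.3 TPM, 79.4 and 77.1 against 50.1 and 56.3 TPM, and 66.7 and 66.6 against 29.8 and 32.6 TPM. It had 105% of its 0 h TPM left in KO at 8 h and 63.4% in WT.

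Of the 4 genes of chromatin assembly and histone mRNA, Chaf1a and Uhrf1 were higher in KO at 8 h (37.3% of all tested genes were higher), and Slbp ran the other way. Chaf1a, a subunit of the chromatin assembly factor CAF-1, had the largest log2(TPM + 1) loss of all members in WT, from 41.3 and 45.9 TPM through 5.97 and 5.89 TPM to 2.05 and 2.01 TPM, and in KO from 47.3 and 45.4 TPM through 6.92 and 6.51 TPM to 4.98 and 4.15 TPM. Its log2 change at 8 h was −3.88 ± 0.11 in WT and −3.09 ± 0.11 in KO, and the difference of 0.79 ± 0.16 passed (limma adjusted p = 0.00609). Chaf1b, its partner subunit, lost the least of the 4 in WT, at 31.7 and 34.5, 17.4 and 16.9, and 5.89 and 8.90 TPM, against 31.5 and 30.0, 18.2 and 19.7, and 7.90 and 8.78 TPM in KO, with overlap at 8 h. Uhrf1, which reads hemimethylated DNA behind the fork and recruits Dnmt1, stood at 87.0 and 101, 44.5 and 41.6, and 14.1 and 11.8 TPM in WT and at 97.5 and 99.8, 54.7 and 53.5, and 31.0 and 26.8 TPM in KO. Its difference of the 0 to 8 h change was 1.03 ± 0.15 (limma adjusted p = 0.0011).

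Slbp binds the stem-loop of histone mRNA. It stood at 70.0 and 72.3 TPM in WT at 0 h, 25.4 and 23.8 TPM at 4 h and 6.21 and 5.68 TPM at 8 h, and in KO at 74.4 and 73.9, 21.7 and 21.0, and 4.99 and 5.01 TPM. KO libraries lay above WT at 0 h and below WT at 4 and 8 h. The difference of −0.21 ± 0.09 at 8 h did not pass (limma adjusted p = 0.0647), nor did that of the 0 to 8 h change (−0.27 ± 0.12, limma adjusted p = 0.151). Both passed with median-ratio scaling, at −0.47 (adjusted p = 0.00121) and −0.51 (adjusted p = 0.0177), and with housekeeping scaling.

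Of the 3 regulators of the G1/S transition, Ccne1 and Ccne2 encode the E-type cyclins that activate Cdk2. Ccne1 stood at 31.4 and 40.0, 14.1 and 11.7, and 3.78 and 2.42 TPM in WT, and at 37.6 and 42.7, 15.8 and 18.3, and 7.78 and 5.90 TPM in KO. It was higher in KO at 8 h by 0.94 ± 0.18 (limma adjusted p = 0.000976), while the difference of the change, 0.77 ± 0.26, had a limma adjusted p of 0.0546 and passed with a pseudocount of 0.1 (0.96, adjusted p = 0.0448). Ccne2 stood at 23.5 and 24.7, 4.45 and 3.76, and 1.65 and 1.14 TPM in WT, and at 28.8 and 26.9, 4.96 and 5.00, and 1.68 and 1.83 TPM in KO. At 8 h KO held 2.21 times as much Ccne1 and 1.26 times as much Ccne2 as WT. The Ccne2 difference at 8 h, 0.21 ± 0.14, did not pass (limma adjusted p = 0.226). E2f1, the transcription factor, was among the slowest to fall: 26.1 and 31.4, 21.2 and 21.7, and 16.1 and 16.3 TPM in WT, and 28.7 and 29.3, 22.6 and 21.7, and 22.6 and 18.9 TPM in KO. Its difference at 8 h, 0.34 ± 0.11 (limma adjusted p = 0.0229), was lost without either WT library or the first KO library at 8 h (adjusted p up to 0.205) and changed sign with housekeeping scaling (−0.04, adjusted p = 0.716).

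**Figure D3:**
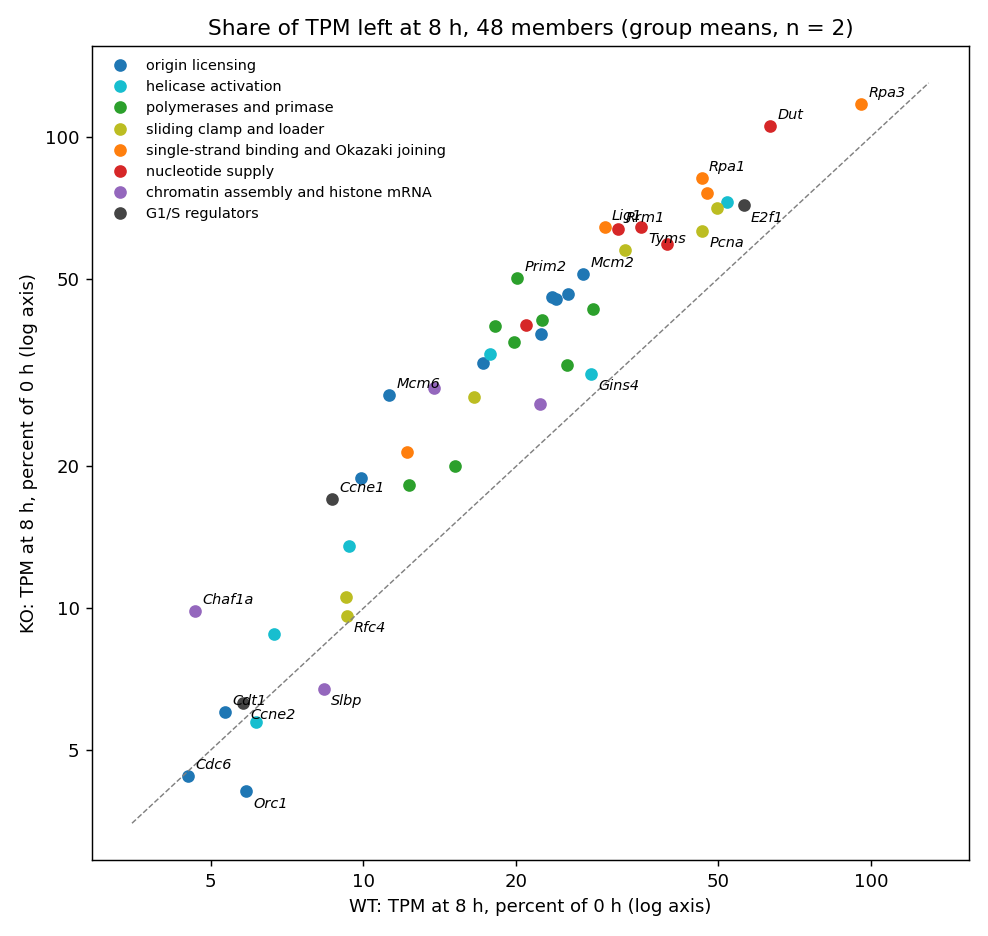
TPM at 8 h as a percentage of TPM at 0 h in WT (x, log axis) and KO (y, log axis), from means of 2 libraries, with 1 point per member coloured by role. The dashed line marks equal shares. Most points lie above it, as Mcm6 does at 11.2% in WT and 28.3% in KO, while Slbp at 8.36% and 6.74% lies below.

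Genes that lost much in WT also lost much in KO. Across the 48 members, the log2 change at 8 h in WT and in KO had a Pearson r of 0.928 and a Spearman rho of 0.943, which describe genes measured in the same libraries and carry no test. The 6 members with the largest loss in WT on the log2(TPM + 1) scale were Chaf1a, Cdt1, Mcm10 (−3.40 ± 0.13 in WT, −3.14 ± 0.13 in KO), Ccne2 (−3.40 ± 0.14 and −3.39 ± 0.14), Slbp (−3.38 ± 0.09 and −3.65 ± 0.09) and Cdc6 (−3.30 ± 0.17 and −3.42 ± 0.17). Subunits of 1 complex differed in what remained: the share left at 8 h in WT ran from 11.2% to 27.1% within the Mcm ring, from 46.4% to 95.8% within RPA, from 9.23% to 49.7% within RFC and from 6.14% to 52.0% within GINS. The lowest GINS share was that of Gins3, which stood at 0.90 and 0.19 TPM in WT at 8 h, so this share is imprecise.

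Loss was steeper in the second 4 h for most members. In WT 35 of 48 fell more between 4 and 8 h than between 0 and 4 h on the log2(TPM + 1) scale, and in KO 32 of 48 did. On that scale the added 1 understates the later loss of genes that end at a low level. The same count was not made over all tested genes. By test, 43 members fell in WT over the first 4 h, where 71.0% of all tested genes fell, and 48 over the next 4 h, where 54.8% fell. In KO 40 members fell over the first 4 h (68.0% of tested genes) and Dut rose (0.30 ± 0.10, limma adjusted p = 0.0142, but 0.135 without the first KO library at 0 h and 0.0722 without the first at 4 h), and 43 fell over the next 4 h (43.1% of tested genes) while Rpa3 rose. The members' median in WT was −0.86 over the first 4 h, close to −0.81 for all tested genes, and −1.24 over the next 4 h, when that of all tested genes was −0.43. In KO the members' medians were −0.56 and −0.74, beside −0.70 and −0.28.

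Mcm6, Mcm7 and Tyms fell late. In WT the log2 changes over the first and the next 4 h were −0.86 ± 0.09 and −2.24 ± 0.09 for Mcm6, −0.32 ± 0.08 and −1.64 ± 0.08 for Mcm7, and −0.10 ± 0.13 and −1.32 ± 0.13 for Tyms. In KO they were −0.44 ± 0.09 and −1.37 ± 0.09 for Mcm6, −0.24 ± 0.08 and −0.86 ± 0.08 for Mcm7, and −0.02 ± 0.13 and −0.60 ± 0.13 for Tyms. The first change did not pass for Tyms in either genotype (limma adjusted p = 0.488 and 0.914), and for Mcm7 in KO its adjusted p of 0.0216 rose to as much as 0.122 without the first KO library at 0 h. Chaf1a, Cdc6 and Ccne2 had the opposite course. Chaf1a changed by −2.69 ± 0.11 and then by −1.19 ± 0.11 in WT, and by −2.62 ± 0.11 and −0.47 ± 0.11 in KO. With median-ratio scaling Mcm6, Mcm7 and Tyms rose over the first 4 h: their changes were 0.14, 0.68 and 0.86 in WT and 0.48, 0.68 and 0.87 in KO. Under that scaling 22 members rose and 11 fell over the first 4 h in WT (36.5% of tested genes rose), and 27 rose and 9 fell in KO (37.1%). Over the next 4 h 38 fell and 2 rose in WT (22.5% of tested genes fell), and 26 fell and 4 rose in KO (20.8%).

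**Figure D4:**
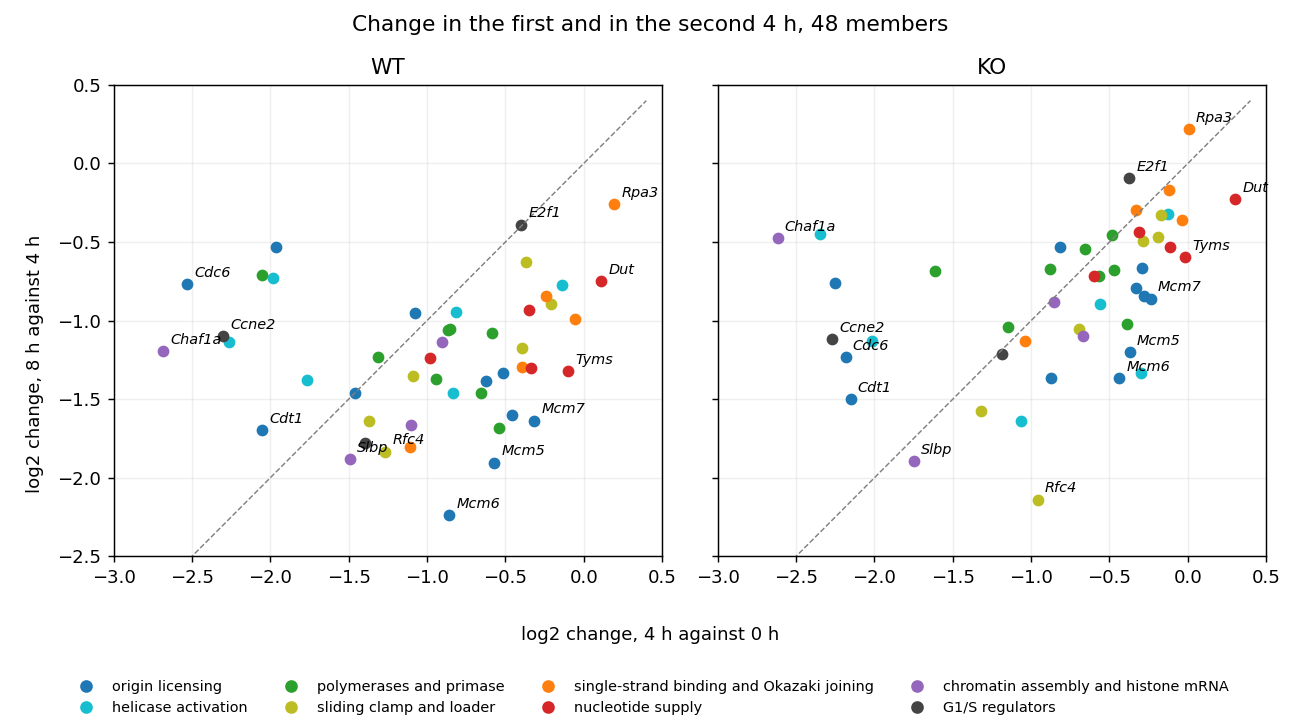
Log2 change from 0 to 4 h (x) and from 4 to 8 h (y) for each member in WT (left) and KO (right), from means of 2 libraries on the log2(TPM + 1) scale. Points below the dashed line fell more in the second 4 h, 35 of 48 in WT and 32 of 48 in KO. Mcm6 in WT lies far below the line and Chaf1a lies to the left of it in both genotypes.

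The members' median genotype difference was larger over the later 4 h in TPM and with median-ratio scaling, but not with housekeeping scaling. For the change from 0 to 4 h, 0 of 48 members passed the test of the genotype difference by limma, 8 had an unadjusted p under 0.05, and 0.35% of all tested genes passed in either direction. The smallest p belonged to Cdc45 (0.70 ± 0.17, limma adjusted p = 0.109), Mcm6 (0.42 ± 0.12, limma adjusted p = 0.147) and Orc2 (0.59 ± 0.17, limma adjusted p = 0.148). For the change from 4 to 8 h 24 members passed, each with the smaller loss in KO, where 10.7% of tested genes passed in that direction. The largest were Prim2 (1.01 ± 0.16), Lig1 (1.00 ± 0.16), Mcm6 (0.87 ± 0.12), Mcm7 (0.78 ± 0.12), Uhrf1 (0.78 ± 0.15) and Rrm1 (0.77 ± 0.11), with limma adjusted p from 0.00163 to 0.00632. All 6 Mcm ring genes, all 5 single-strand binding and Okazaki genes and all 5 nucleotide supply genes were among the 24. None of Orc1, Orc2, Orc6, Cdc6 and Cdt1 passed. The members' median genotype difference was 0.18 over the first 4 h and 0.49 over the next 4 h, or 0.10 and 0.32 with median-ratio scaling. With housekeeping scaling these medians were 0.20 and 0.20, with 3 members passing for the first 4 h (2.54% of tested genes in either direction), among them Mcm6 (0.44, limma adjusted p = 0.0388) and Cdc45 (0.72, limma adjusted p = 0.0435). For the next 4 h 12 then passed with the smaller loss in KO and 1 with the larger (3.68% of tested genes with the smaller loss).

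Before the drug, 5 of the 48 members were higher in KO (14.3% of all tested genes were higher) and 0 were lower: Pold2, Rpa3, Dut, Orc1 and Rfc2. The members' median difference was 0.12, beside 0.06 over all tested genes. The difference was above 0 for 45 of the 48 members, and for 6566 of 11152 tested genes. Orc1 stood at 9.42 and 11.8 TPM in KO and 7.21 and 6.60 TPM in WT, a difference of 0.55 ± 0.16 (limma adjusted p = 0.0235, and 0.175 with a pseudocount of 0.1). Rpa3 differed by 0.47 ± 0.09 (limma adjusted p = 0.00165), Dut by 0.36 ± 0.10 (limma adjusted p = 0.0164) and Rfc2 by 0.24 ± 0.07 (limma adjusted p = 0.0169). The count was 3 without the first WT library and 2 without the second KO library at 0 h, and Orc1, Rfc2 and Dut each lost the call in at least 2 of the 4 such omissions. With housekeeping scaling 2 members were higher (9.78% of tested genes). Mcm6 differed by 0.05 ± 0.09 (limma adjusted p = 0.719).

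At 4 h, 28 of 48 members were higher in KO and 0 were lower, where 24.9% of tested genes were higher, with medians of 0.32 and 0.10. Orc2, an origin complex subunit, led with 17.9 and 17.6 TPM in KO against 9.43 and 8.32 TPM in WT, a difference of 0.93 ± 0.12 (limma adjusted p = 0.000129). It had stood at 34.5 and 32.2 against 26.9 and 25.4 TPM at 0 h and ended at 7.01 and 5.63 against 2.79 and 2.38 TPM at 8 h. Cdc45, Pold2, Rrm2 (0.56 ± 0.08), Dut (0.55 ± 0.10) and Orc6 (0.55 ± 0.12) followed. Orc6, another origin complex subunit, stood at 24.2 and 24.4 TPM in KO and 18.0 and 14.7 TPM in WT, and lost the call without the second WT library at 4 h (adjusted p = 0.0523). The count fell to 11 without the second WT library and to 14 without either KO library at 4 h, and the number of members called at 4 h thus rested on single libraries. With housekeeping scaling 17 were higher and 1 was lower (19.6% of tested genes higher).

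AU-rich elements in 3′ untranslated regions are known to speed the decay of mRNA, so the nonamer TTATTTATT was searched in the 3′ untranslated regions of the members (GENCODE M21, GRCm38). It was found in 3 of 48 members (6.25%, against 7.35% of tested genes): Ccne2 at chr4:11204118-11204142 on the plus strand, E2f1 at chr2:154560035-154560059 and chr2:154559901-154559925 on the minus strand, and Orc1 at chr4:108614581-108614605 on the plus strand. The 25-base windows below carry the nonamer in capitals, and each lies in 1 exon.
Ccne2: ctagaaatTTATTTATTtaaacttg
E2f1, first site: tggagcgtTTATTTATTtatcgagg
E2f1, second site: caagcagtTTATTTATTgggaaagg
Orc1: attttccaTTATTTATTttgctttt

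The 3 genes with the nonamer differed in their loss: Ccne2 and Orc1 kept 5.79% and 5.87% in WT at 8 h while E2f1, with 2 sites, kept 56.2%. The shorter TATTTAT was in 8 members (16.7%, against 27.8% of tested genes). Members with it had a median log2 change at 8 h of −2.82 in WT and −2.86 in KO, and the 40 without it −2.05 and −1.33. The genotype difference of the 0 to 8 h change had medians of 0.38 with it and 0.69 without. E2f1, with 3 matches, was among the 8, as were Orc1 and Cdc6, with means under 1 TPM at 8 h. This split was not tested and was not made over all tested genes. The members' 3′ untranslated regions had a median length of 609.5 bases, beside 985 in tested genes. Across the 48 members the change at 8 h in WT had a Spearman rho of 0.09 with the length of this region and −0.26 with coding length, as a description without a test.

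Other genes of the replication pathway were also higher in KO at 8 h, with smaller medians. Of 58 further genes of replication control, fork protection and chromatin copying, 57 fell and 1 rose in WT at 8 h (median −2.26). Over all tested genes 80.2% fell. At 8 h 33 were higher and 3 lower in KO (median 0.48), where 37.3% of all tested genes were higher. The smaller 0 to 8 h loss in KO was found for 16 (median 0.36), and for 17.3% of all tested genes. Among the 58 genes, those with the smallest p at 8 h included Tipin (1.19 ± 0.09), a fork protection factor, and Rbbp4 (0.86 ± 0.07), a histone chaperone. Mitosis genes, which act after S phase, also differed between genotypes: of 32, 25 were higher and 1 lower in KO at 8 h (median 0.78), and 22 had the smaller loss in KO and 1 the larger (median 0.68). Their summed level was 357 and 363 TPM in WT and 698 and 680 TPM in KO at 8 h. Of the 48 members 38 were higher in KO at 8 h (median 0.85) and 30 had the smaller loss (median 0.69). Differences of similar size were thus not confined to the replication genes. No test compared the lists.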

How the data were processed

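The data were RNA-seq libraries of mouse leukemic cells, 6 groups of 2. The authors deposited TPM per gene. A stranded KAPA mRNA kit was used on TRIzol-extracted RNA, per the labels' protocols. STAR, RSEM and mm10 are named in the submitters' processing notes, with versions not given in the sources used here. Columns sum to 1000000, so values are shares, depth is unknown and no counting interval was given. No added RNA standard is named.

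Tests used log2(TPM + 1) of genes that reached 1 TPM in 2 or more libraries, with a pseudocount of 1, which understates changes of low genes. A limma 3.58.1 model (R 4.3.3) had 1 mean per group over 12 libraries, 6 residual degrees of freedom and a spread with a trend on mean expression. It gave 12 contrasts, with Benjamini-Hochberg adjusted p over all tested genes and a threshold of 0.05, and was tested on simulated data. Errors are standard errors.

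Member genes and lists were chosen with earlier results of these data known. Values per library are given for a set list of members, for the largest and smallest loss of each role, and for up to 6 members per genotype comparison, and other members by counts and ranges. The 21 alternatives included 2 other pseudocounts, 2 scalings, 2 other filters, no trend and the compared groups alone. The rest were the replicate number as a block and each library left out. The scalings used the median ratio over genes detected in every library, and 22 housekeeping genes. Sequences came from RefSeq (GRCm38.p6) and GENCODE M21 (GRCm38), which share coordinates with mm10.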

Additional observations from a re-analysis of the deposited data

Results flagged for a closer look

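The test of the difference between the genotypes' 0 to 8 h change passed for 30 of the 48 members, which flagged these results. Each had the smaller loss in KO, and 17.3% of all tested genes passed in that direction. By gene, the difference (KO minus WT, log2, limma) was 0.89 for Mcm2, 0.94 for Mcm3, 0.88 for Mcm4, 0.90 for Mcm5, 1.29 for Mcm6, 0.86 for Mcm7, 1.03 for Prim1 and 1.18 for Prim2. It was 0.44 for Pcna, 1.06 for Lig1, 0.99 for Rrm1, 0.90 for Rrm2, 0.81 for Tyms, 0.79 for Chaf1a and 1.03 for Uhrf1. For the change from 4 to 8 h the difference passed for 24 members, where 10.7% of all tested genes passed with the smaller loss in KO. Values were 0.87 for Mcm6, 0.78 for Mcm7, 1.01 for Prim2, 1.00 for Lig1, 0.77 for Rrm1 and 0.78 for Uhrf1. Groups of 2 libraries are too small for a check of single outlying libraries.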

How the results depend on the processing

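Of 121 log2 changes of single genes, 118 and 119 kept their direction and side of the threshold with pseudocounts of 0.1 and 0.5, 120 without the filter, 118 of 119 with a mean of at least 5 TPM, 118 without the trend and 116 with the compared groups alone. With housekeeping scaling 107 did and with median-ratio scaling 101. With housekeeping scaling, members past the threshold numbered 2 (KO against WT at 0 h), 18 (at 4 h, 17 higher and 1 lower), 3 (difference of the 0 to 4 h change) and 13 (difference of the 4 to 8 h change, 12 and 1). It reversed E2f1 at 8 h (−0.0419) and Rpa3 over 8 h in KO (−0.0357). Median-ratio scaling moved the median of all tested genes in WT at 8 h from −1.40 to −0.07. Over the first 4 h it called 33 members in WT (22 higher, 11 lower, where 36.5% of tested genes were higher) and 36 in KO (27 and 9, where 37.1% were). Over the last 4 h the splits were 2 higher and 38 lower in WT (22.5% of tested genes lower) and 4 and 26 in KO (20.8%). It reversed Rpa3 over 8 h in WT (1.60), Mcm2 over 8 h in KO (0.45) and, over the first 4 h, Mcm6 (0.14 in WT, 0.48 in KO), Mcm7 (0.68 in both) and Tyms (0.86 and 0.87). The cause was not tested.

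On leaving out each library, the counts ranged from 2 to 6, 11 to 30 and 35 to 38 for KO against WT at 0, 4 and 8 h. They were 40 to 44, 47 to 47 and 45 to 48 for WT at 4 h against 0 h, 8 h against 0 h and 8 h against 4 h, and 32 to 41, 46 to 47 and 40 to 46 for KO. For the genotype difference of the 0 to 4 h, 4 to 8 h and 0 to 8 h changes they were 0 to 0, 16 to 25 and 24 to 33. A group left with 1 library is assumed to vary like the others. Without the first WT library at 0 h, high in S100a8, 38 members were higher in KO at 8 h and 33 had the smaller 0 to 8 h loss. Same-numbered libraries did not deviate together (correlations from −0.08 to 0.05 over 15 pairs of groups); with the replicate number as a block 6, 27 and 38 members were higher in KO at 0, 4 and 8 h and 29 had the smaller 0 to 8 h loss. Unknown depth limits genes near 1 TPM.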
